A study of Mus musculus with 4 samples.

Results

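The genes described here encode the proton-pumping complexes of the mitochondrial respiratory chain and the ATP synthase. They were taken from the deposited gene counts by symbol: mt-Nd, mt-Co, mt-Cytb and mt-Atp for the mitochondrial genome, and Ndufa, Ndufb, Ndufc, Ndufs, Ndufv, Uqcr, Cox4 to Cox8 and Atp5 for the nucleus. Of 46078 gene rows, 113 had such a symbol. Pseudogene symbols accounted for 7 of these, and 16 had fewer than 100 counts over all libraries. The remaining 90 genes, 7 mitochondrial and 83 nuclear, were the members. Just inside the limit stood Cox6b2, with 30, 54, 44 and 74 counts in the 4 libraries. Just outside it stood Cox7a1, with 16, 17, 13 and 4.

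The data are poly(A) RNA-seq of 4 libraries from mouse cells. Ctrl 1 and Ctrl 2 had the genotype CD11c-cre, and Il33flx 1 and Il33flx 2 had the genotype CD11c-cre-Il33flx/flx, so Cre under the CD11c promoter was shared by both groups. CD11c-driven Cre acts in dendritic cells (DCs) and in some other myeloid cells. Both groups bore tumours of EL4-Flt3 cells, injected 10 days earlier, and spleen and mesenteric lymph node cells were sorted as CD45+, CD64-, CD11b+, MHCII+ and CD103+. The labels give no age, and they leave unsaid whether each library came from 1 mouse or a pool. P-values therefore reflect only how far these libraries differ, part of which may be technical.

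Oxidative phosphorylation passes electrons from NADH through complexes I, III and IV to oxygen, and complex V uses the resulting proton gradient to make ATP. The mitochondrial genome encodes the core membrane subunits of these complexes, is transcribed from both strands as long precursors and is cut into single RNAs. All other subunits are encoded in the nucleus, translated in the cytosol and imported. Activated DCs are known to shift their metabolism towards glycolysis.

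The libraries held 67707682 to 81217828 gene counts. Values per library are CPM (counts scaled to a common library total) after scaling by edgeR's TMM factors, which lay between 0.945 and 1.04. Il33, the targeted gene, had 4, 8, 4 and 0 counts in Ctrl 1, Ctrl 2, Il33flx 1 and Il33flx 2, too few to check the genotype labels. The gate and DC genes were present: Zbtb46, a transcription factor of conventional DCs, stood at 446, 378, 353 and 348 CPM in Ctrl 1, Ctrl 2, Il33flx 1 and Il33flx 2. Zbtb46 was thus lower in both Il33flx libraries. So was Itgax, which encodes CD11c and had the smallest p of the 13 genes listed, at 646, 517, 359 and 407 CPM in the same order. Its log2 fold change of Il33flx over Ctrl was -0.60 with a standard error of 0.19 (edgeR, adjusted p = 0.995). Both Il33flx libraries lay below both Ctrl libraries for 3 of the 13 and above them for 1, against 14.9% and 15.4% of all genes. Of the 13 gate and DC genes, 8 had a negative and 5 a positive log2 fold change of Il33flx over Ctrl, with 0 called by edgeR. Ctrl 1 was the highest library for 8 of the 13, and for 5131 of all 14995 genes tested. Ctrl 1 stood apart from the other libraries in many genes, and that is given with the results below. In bulk RNA, fewer cells of a type and less RNA per cell cannot be told apart.

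Only 7 of the 13 protein genes of the mitochondrial genome entered the comparison. The genes mt-Co2, mt-Co3, mt-Atp6, mt-Atp8 and mt-Nd4l had 0 counts in all 4 libraries, and mt-Nd3 had 3, 12, 10 and 5. In the deposited counts, reads without a unique alignment made up 21.9% to 23.1% of the reads recorded for each library. Unaligned reads stood at 0 there, so this is a share of aligned reads. Because reads without a unique alignment belonged to no gene, a count of 0 puts no limit on the expression of a gene that has an identical copy elsewhere. Copies of part of the mitochondrial genome lie in the nuclear genome, and the annotation of build GRCm38 places a run of such pseudogenes on chromosome 1 between 24611535 and 24616197.

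Each mitochondrial transcript was split into windows of 50 bases, and windows found unchanged in an annotated nuclear transcript were counted. The share was 100% for mt-Co2, 99.9% for mt-Co3, 99.5% for mt-Atp6, 98.8% for mt-Nd4l and 98.0% for mt-Nd3. It was 62.2% for mt-Nd4, 51.1% for mt-Co1, 8.19% for mt-Nd2 and 7.61% for mt-Nd5. It was 0% for mt-Nd1, mt-Nd6 and mt-Cytb. The genes with the highest shares, mt-Co2, mt-Co3, mt-Atp6 and mt-Nd4l, were those at 0 counts, and mt-Nd3 came next in both. mt-Atp8 stood apart: 0 of its windows were found in a nuclear transcript, and it had 0 counts. It lies between mt-Co2 and mt-Atp6, and the nuclear stretch between the copies of those genes, after 24614651 and before 24614885, was not compared here. The nuclear copies on chromosome 1 had 0 to 8 counts per library. The part of these copies in the values was not tested.

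The following stretches show 3 degrees of likeness, from GENCODE M21 transcripts of GRCm38. Capitals mark bases that differ between a mitochondrial gene and its nuclear copy. mt-Co2, which encodes subunit 2 of complex IV and had 0 counts, and its copy Gm28661 are shown at bases 341 to 400 of the mitochondrial transcript; they were identical over all 681 bases compared.
mt-Co2: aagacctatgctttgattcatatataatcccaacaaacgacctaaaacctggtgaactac
Gm28661: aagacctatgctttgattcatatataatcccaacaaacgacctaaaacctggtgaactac
mt-Nd2, which encodes a complex I subunit and was counted, is shown at bases 784 to 843 with Gm13339 on chromosome 2; 493 of 510 bases were identical, and 2 of those shown differ.
mt-Nd2: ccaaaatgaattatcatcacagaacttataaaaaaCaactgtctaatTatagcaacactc
Gm13339: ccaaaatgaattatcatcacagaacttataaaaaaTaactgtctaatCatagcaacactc
mt-Nd5, another complex I subunit gene that was counted, is shown at bases 1277 to 1336 with Gm11407 on chromosome 4; 896 of 1058 bases were identical, and 4 of those shown differ.
mt-Nd5: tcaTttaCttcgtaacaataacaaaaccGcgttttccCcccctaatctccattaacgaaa
Gm11407: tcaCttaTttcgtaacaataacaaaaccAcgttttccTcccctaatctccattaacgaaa

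The mitochondrial members varied more between libraries of one group than between the groups. mt-Co1, at chrM:5328-6872, encodes the catalytic subunit of complex IV and stood at 225 and 1133 CPM in Ctrl 1 and Ctrl 2 and at 926 and 571 CPM in Il33flx 1 and Il33flx 2. Ctrl 1 was the lowest and Ctrl 2 the highest library, 5.04-fold apart, so both Il33flx values lay between the Ctrl values. The group means were 679 ± 642 and 748 ± 251 CPM (SD, n = 2 each), and the log2 fold change of Il33flx over Ctrl was 0.14 with a standard error of 0.67. mt-Cytb, at chrM:14145-15288, encodes the cytochrome b of complex III. It stood at 152, 315, 298 and 163 CPM in Ctrl 1, Ctrl 2, Il33flx 1 and Il33flx 2, with 1 low and 1 high library in each group and a log2 fold change of -0.02 with a standard error of 0.41.

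The complex I genes on the same strand as mt-Co1 split the libraries in a like way. In Ctrl 1, Ctrl 2, Il33flx 1 and Il33flx 2, mt-Nd1 stood at 70.7, 145, 162 and 83.8 CPM. mt-Nd5 stood at 52.8, 102, 102 and 61.5 CPM. mt-Nd4 stood at 23.5, 49.1, 51.9 and 32.6 CPM. Ctrl 2 and Il33flx 1 were the high libraries for each of the 3 genes, and the groups overlapped. mt-Nd2 stood at 12.7, 29.3, 27.2 and 11.1 CPM, with Il33flx 2 the lowest. mt-Nd6, at chrM:13552-14070, is the one protein gene of the opposite strand, and it did not follow this order. It stood at 6.51, 5.58, 6.68 and 3.83 CPM, so that Ctrl 1 was above Ctrl 2. It shares its end with mt-Nd5, and no source used here gives the strand setting of the counting, so reads of the shared bases cannot be told apart.

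**Figure D1:**
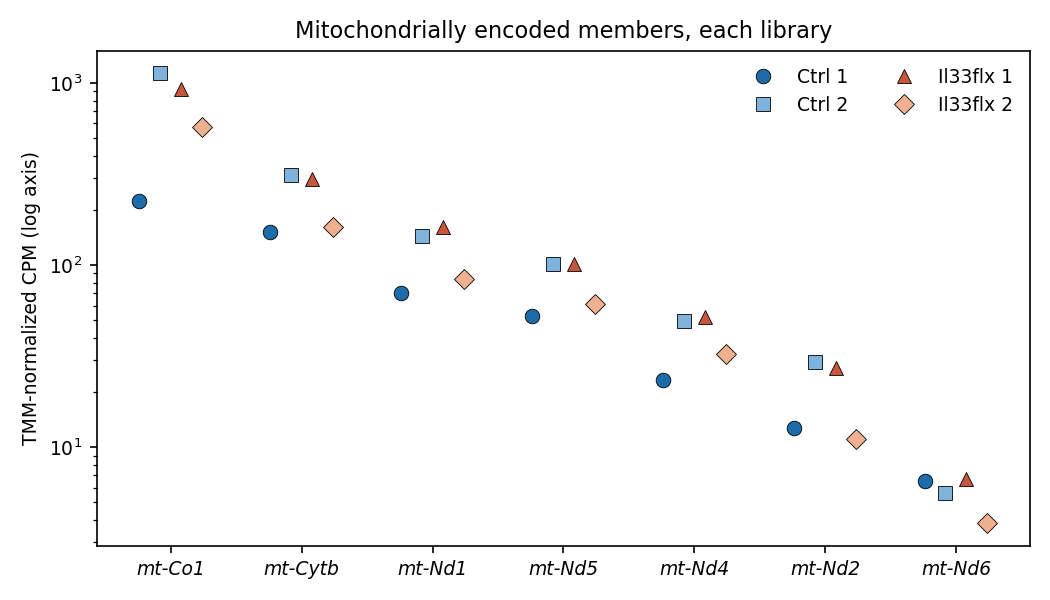
TMM-normalized CPM (log axis) of the 7 mitochondrial members, with 1 point per library. Ctrl 2 and Il33flx 1 are the 2 highest libraries for every gene except mt-Nd6, and mt-Co1 runs from 225 to 1133 CPM within Ctrl.

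Summed over the 7 genes, the mitochondrial members held 543, 1778, 1573 and 926 CPM in Ctrl 1, Ctrl 2, Il33flx 1 and Il33flx 2. The 83 nuclear members held 10028, 10004, 9325 and 10187 CPM. The highest library exceeded the lowest 3.28-fold in the first sum and 1.09-fold in the second. There were 5.41, 17.8, 16.9 and 9.09 mitochondrial member counts for every 100 nuclear ones, and the groups overlapped. The ratio leaves out mt-Co2, mt-Co3, mt-Atp6, mt-Atp8, mt-Nd3, mt-Nd4l and all reads without a unique alignment. It is therefore not the whole balance of mitochondrial to nuclear transcripts. Without mt-Co1 the ratio was 3.17, 6.45, 6.94 and 3.49. Gene by gene, the highest library exceeded the lowest by a median of 2.21-fold over the mitochondrial members and 1.32-fold over the nuclear ones. The order of libraries was shared by mt-Rnr2, the large ribosomal RNA of the mitochondrion, which stood at 124, 262, 237 and 170 CPM. A single value over 2 against 2 libraries cannot give a two-sided permutation p below 0.333, so no such test was run on these sums.

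Between Il33flx and Ctrl, 0 members passed the tests, which called few genes of any kind. The absence of calls is thus not particular to the members, and with so few libraries it does not show that the groups were alike. edgeR's quasi-likelihood test called 0 of the 90 members at an adjusted p below 0.05, where it called 0.00667% of all 14995 genes tested, which is 1 gene. At an unadjusted p below 0.05 the count of members was also 0, against 3.26% of all genes. DESeq2 called 0 members against 0.353% of all genes, and limma-voom called 0 members and 0 genes. The authors' deposited DESeq2 table listed all 90 members and gave an adjusted p below 0.05 to 0 of them, against 51 of its 15001 genes. The smallest unadjusted p of a member in it was 0.0764. The Il33flx libraries both lay above the Ctrl libraries for 4 members (4.44%), against 15.4% of all genes. They both lay below for 8 members (8.89%), against 14.9%. The other 78 overlapped.

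The median log2 fold change was 0.08 over the mitochondrial members and -0.04 over the nuclear members, against 0.01 over all genes tested. Under scaling by library size alone these were 0.15, 0.04 and 0.09. How small a difference could have been seen differed between the 2 genomes. The 95% interval of the fold change stayed within 2-fold of Ctrl for 64 of 83 nuclear members and within 1.5-fold for 32. It stayed within 2-fold for 1 of 7 mitochondrial members. The sign of the mitochondrial median turned with single libraries: it was -0.30 without Ctrl 1, 0.63 without Ctrl 2, -0.36 without Il33flx 1 and 0.43 without Il33flx 2. With an offset for GC content and transcript length, chosen after the data were seen, it was -0.36.

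**Figure D2:**
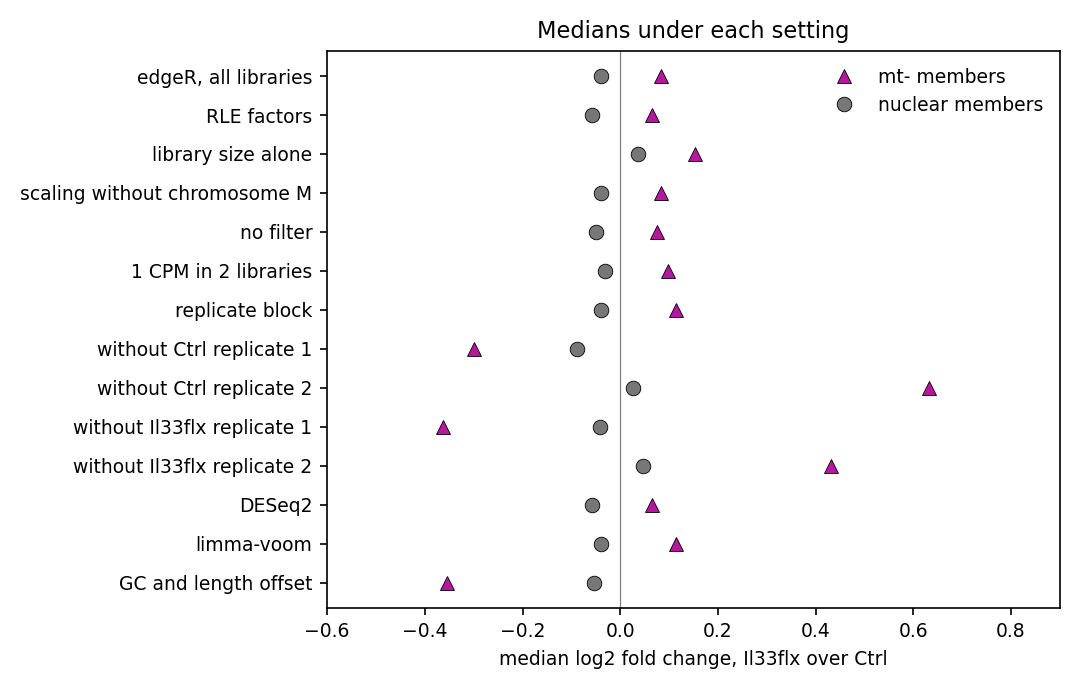
Median log2 fold change of Il33flx over Ctrl for the mitochondrial (triangles) and nuclear (circles) members under each setting of the analysis. The nuclear median stays between -0.09 and 0.05, and the mitochondrial median runs from -0.36 to 0.63.

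Complex I takes electrons from NADH, and 36 of its nuclear members were measured. Their median log2 fold change was -0.04, with 14 positive, 22 negative and 0 called; under scaling by library size alone, 20 were positive and 16 negative, and without Ctrl 1, 9 and 27. Ndufs8, an iron-sulfur subunit, was the nuclear complex I member with the highest level per length, at 119 CPM per kb of exon (mean of the 4 libraries, as for all levels per length). It stood at 174, 152, 136 and 154 CPM in Ctrl 1, Ctrl 2, Il33flx 1 and Il33flx 2, and the groups overlapped. Ndufb9 and Ndufa8, accessory subunits, followed at 110 and 99.4 CPM per kb. Ndufa3, an accessory subunit, had the smallest p of the complex. It stood at 26.1, 22.7, 21.3 and 13.9 CPM, so that both Il33flx libraries lay below both Ctrl libraries, with Il33flx 2 far below the rest. Its log2 fold change was -0.47 with a standard error of 0.27, and edgeR's adjusted p was 0.995. The change was -0.16 without Il33flx 2 and -0.81 without Il33flx 1. Ndufa11, a membrane-arm subunit, was close within groups at 50.9, 50.5, 44.1 and 44.5 CPM and also lay lower in Il33flx, by -0.20 on the log2 scale with a standard error of 0.18 and an edgeR adjusted p of 0.995.

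The 8 Ndufaf genes encode assembly factors of complex I rather than subunits. Their median log2 fold change was 0.12, and 6 were positive. It was 0.03 without Ctrl 1, with 5 positive, and 0.26 without Ctrl 2, with 7 positive. Ndufaf1 stood at 12.4, 19.7, 20.99 and 23.0 CPM, with both Il33flx libraries above both Ctrl libraries and Ctrl 1 far below the rest. Its log2 fold change was 0.45 with a standard error of 0.28 (edgeR, adjusted p = 0.995), and it was 0.17 without Ctrl 1 and 0.82 without Ctrl 2. Ndufaf5, which modifies a complex I subunit, stood at 2.89, 7.74, 8.45 and 7.57 CPM, so that Ctrl 1 alone was low. Its log2 fold change of 0.59 had a standard error of 0.47, and the groups overlapped.

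Complex III passes electrons from ubiquinol to cytochrome c. The log2 fold change was below 0 for each of its 8 nuclear members (median -0.17), where 7224 of the 14995 genes tested were negative. 0 of the 8 passed the test. Only Uqcrb (12.5% of the 8) had groups that did not overlap, with Il33flx lower, against 14.9% of all genes. Scaling by library size alone left 7 of 8 negative, and without Il33flx 2 the split was 4 and 4. Uqcrb, a subunit near the ubiquinone site, had the smallest p of all members, 0.0916 before and 0.995 after adjustment by edgeR. It stood at 40.3, 54.2, 38.9 and 26.9 CPM, with Ctrl 2 the highest and Il33flx 2 the lowest and Ctrl 1 close to Il33flx 1. Its log2 fold change was -0.52 with a standard error of 0.26. It was -0.25 without Il33flx 2, -0.29 without Ctrl 2, -0.81 without Il33flx 1 and -0.80 with the GC and length offset. Uqcrc1, a core protein, had the highest level per length of the complex at 194 CPM per kb. It stood at 942, 771, 687 and 817 CPM, so that Il33flx 2 lay above Ctrl 2. Uqcrfs1, the Rieske iron-sulfur protein, stood at 239, 196, 170 and 200 CPM, with Ctrl 1 the highest and Ctrl 2 between the Il33flx libraries. Uqcrc2, the second core protein, was at 88.5 CPM per kb.

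Complex IV reduces oxygen, and its 13 nuclear members include Ndufa4, which was first assigned to complex I. Their median log2 fold change was 0.00, with 7 positive and 6 negative. The split depended on the setting: 2 were positive without Ctrl 1 and with the GC and length offset, 3 without Il33flx 1, 11 without Il33flx 2 and 9 under scaling by library size alone. Several subunits exist as isoforms that differ between tissues, and the sorted cells held mainly the widely expressed ones. Cox4i1 stood at 283, 249, 236 and 259 CPM, while Cox4i2, the isoform best known from lung, had 0, 0, 3 and 0 counts. Cox6a1 stood at 123, 127, 125 and 117 CPM, and Cox6a2, the heart and muscle isoform, at 2.59, 1.97, 2.15 and 1.26 CPM. Per kb of exon these were 175 for Cox6a1 and 2.93 for Cox6a2. Ckm, a muscle marker, stood at 0.133 to 0.311 CPM. Cox6b1 was at 124 and Cox6b2, the testis isoform, at 0.626 CPM per kb. Cox7a2 stood at 36.7, 49.2, 47.9 and 43.6 CPM, against the 4 to 17 counts of the muscle isoform Cox7a1. Cox8a stood at 88.0, 94.1, 90.1 and 74.3 CPM, whereas Cox8b and Cox8c had 0 counts in every library. Ndufa4 stood at 45.4, 65.8, 59.8 and 51.5 CPM, and its paralog Ndufa4l2 had 0 counts. In each of the members among these genes the groups overlapped.

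Complex V makes ATP by rotary catalysis, and its 16 members had a median log2 fold change of -0.03, with 5 positive and 11 negative, or 13 positive and 3 negative under scaling by library size alone and 10 and 6 without Ctrl 2. Atp5b, the catalytic beta subunit, had the highest level per length of all members at 568 CPM per kb. It stood at 2521, 2365, 2191 and 2543 CPM, and Il33flx held both the lowest and the highest library. Atp5a1, the alpha subunit, stood at 1278, 1067, 1005 and 1201 CPM, and the groups overlapped. Atp5c1, the central-shaft gamma subunit, stood at 243, 454, 420 and 466 CPM. Ctrl 1 alone was low, and the log2 fold change of 0.35 had a standard error of 0.30. The 3 genes for the c subunit of the rotor ring encode the same mature protein. Their levels were 79.1 for Atp5g3, 11.4 for Atp5g1 and 4.79 CPM per kb for Atp5g2, and their log2 fold changes were 0.01, -0.03 and 0.00. The length covers all annotated exons of a gene, which can exceed that of its main transcript. Not divided by length, the authors' mean normalized counts for the 3 genes were 12531, 4069 and 583.

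Atp5k and Atp5l, small membrane subunits, were the complex V members with the smallest p in each direction. Atp5k stood at 6.67, 6.19, 5.79 and 3.94 CPM, lower in both Il33flx libraries, and Atp5l at 3.90, 4.37, 5.38 and 5.94 CPM, higher in both. The log2 fold changes were -0.40 with a standard error of 0.31 and 0.45 with a standard error of 0.28 (edgeR, adjusted p = 0.995 for each). For Atp5k the change was -0.12 without Il33flx 2 and -0.71 without Il33flx 1. Both have annotated pseudogenes, and their counts are uncertain because reads without a unique alignment were not assigned to genes. Cox7a2l, which ties complexes III and IV into supercomplexes, stood at 33.6, 45.1, 41.5 and 52.3 CPM with overlapping groups.

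**Figure D3:**
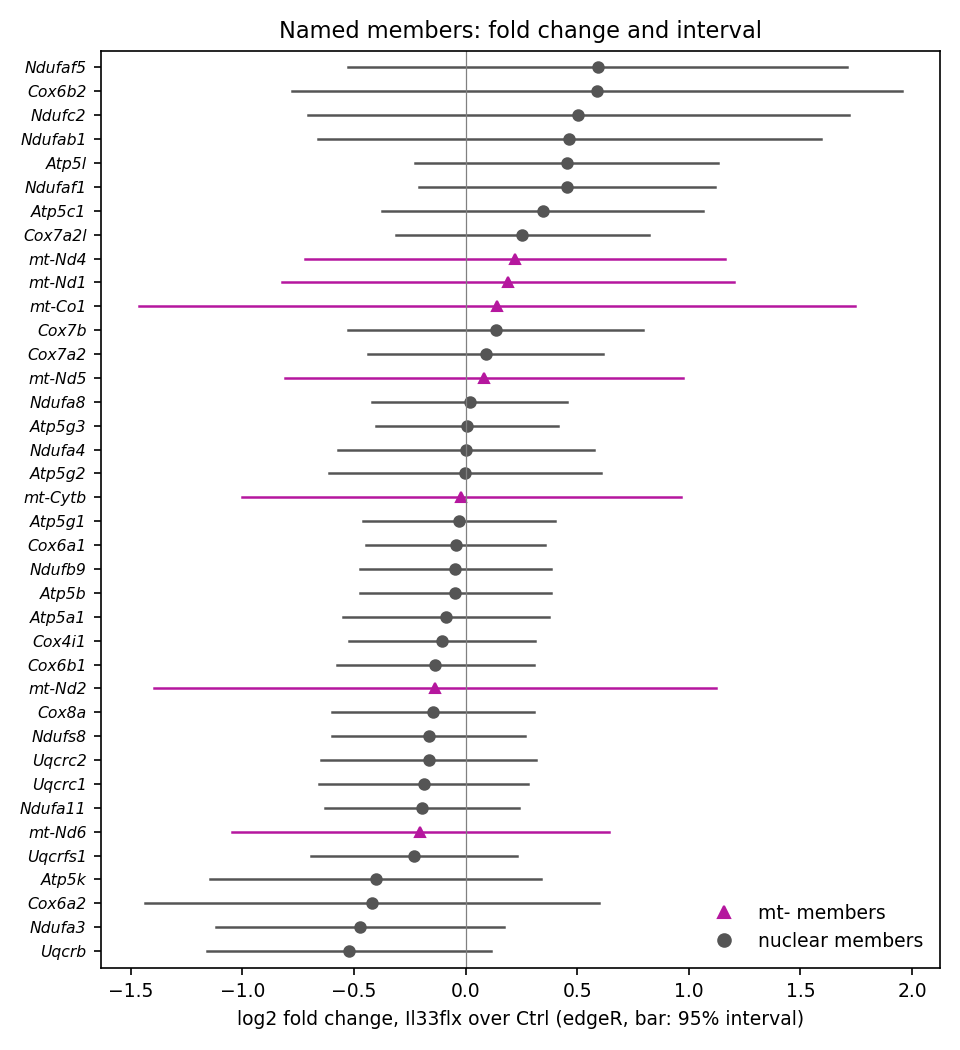
Log2 fold change of Il33flx over Ctrl with its 95% interval (edgeR) for the 38 members chosen by the naming rule, mitochondrial as triangles and nuclear as circles. Every interval includes 0, and that of mt-Co1 runs from -1.46 to 1.74.

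The largest spread among nuclear members came from one Ctrl library. In Ctrl 1, 9 of the 83 nuclear members (10.8%) lay more than 1 unit of log2 below the mean of the other 3 libraries, against 9.53% of all genes tested. These were Atp5s, Ndufc2, Atp5f1, Ndufab1, Ndufaf5, Ndufb6, Ndufv2, Ndufc1 and Ndufaf4, named because of that value. Ndufc2, an accessory subunit of complex I, stood at 14.4, 47.9, 45.4 and 43.1 CPM. Atp5f1, the stator b subunit, stood at 93.4, 305, 278 and 290 CPM. Ndufv2, an iron-sulfur subunit of the NADH-binding module, stood at 47.0, 138, 117 and 121 CPM. In all 3 genes Ctrl 2 lay above both Il33flx libraries, so the groups overlapped. When Ctrl 2 was left out, edgeR called these 3 members, against 0.44% of all genes. Their log2 fold changes were then 1.62, 1.60 and 1.34 with an adjusted p of 0.0469. In that fit Ctrl is Ctrl 1 alone, the library in which these genes were picked for being low. The spread comes from the Il33flx pair, and the lone library is assumed to vary likewise. With Ctrl 1 left out they were -0.11, -0.09 and -0.20, with an edgeR adjusted p of 0.9999.

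**Figure D4:**
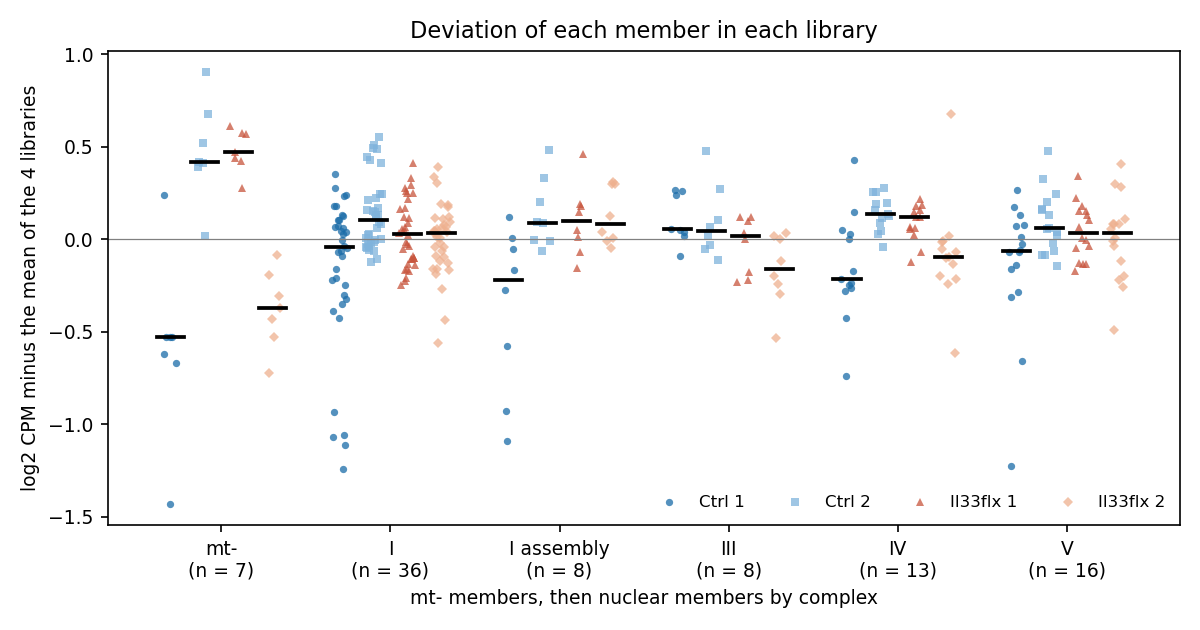
Log2 CPM of each member in each library minus its mean over the 4 libraries, for the mitochondrial members and the nuclear members by complex (points are genes, black bars are medians). Ctrl 1 and Il33flx 2 lie low for the mitochondrial members. A few nuclear members of complex I, the assembly factors Ndufaf4 and Ndufaf5 and Atp5f1 of complex V lie far below the rest in Ctrl 1 alone. Atp5s and Cox7a2l are not drawn.

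The level in Ctrl 1 moved with the base composition of the transcript. The 9 low members had 39.5% to 49.1% GC, with a median of 45.3%, against a median of 51.8% for the other nuclear members. The mitochondrial members had 34.1% to 39.9%. In the nuclear members with under 45% GC, the median log2 ratio of Ctrl 1 to the mean of the other libraries was -0.56, and in those with 55% or more it was 0.05. Over the 83 nuclear members the ratio followed GC content with r = 0.51 (Spearman 0.48), and over 14945 genes with r = 0.50 (Spearman 0.54). The points share the same 4 libraries and are genes, which are not replicates. Ctrl 2 and Il33flx 1 followed GC content the other way, with r = -0.46 and -0.44 over the nuclear members and -0.34 and -0.25 over all genes. Each ratio is taken against the other libraries, so these values are not independent of that of Ctrl 1. In Il33flx 2 the ratio followed GC content less, with r = -0.23 over the nuclear members. There it followed transcript length more, with r = 0.46 (Spearman 0.56) over the nuclear members and -0.01 (Spearman -0.08) over all genes. It was 0.43 (Spearman 0.45) over 85 cytosolic ribosome genes and 0.39 (Spearman 0.39) over 77 mitochondrial ribosome genes, so the nuclear members did not stand alone in this. The part of composition and length in the fold changes was not tested.

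**Figure D5:**
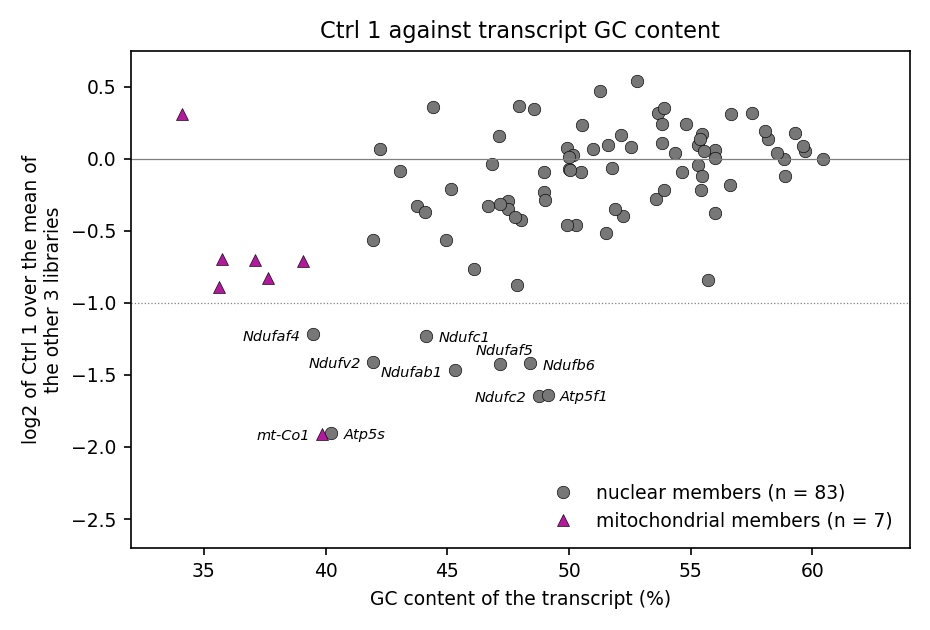
Log2 ratio of Ctrl 1 to the mean of the other 3 libraries against transcript GC content, for 83 nuclear and 7 mitochondrial members. The named points below the dotted line at -1 have at most 49.1% GC, and members with 50% GC or more stay above it.

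Genes that feed, build or regulate the complexes were counted in the same fit, from lists written with the earlier results known. edgeR called 0 genes of these lists, against 0.00667% of all genes tested, and DESeq2 and limma-voom also called 0 of them. In edgeR, 2 of the listed genes, Ppargc1a and Coq10a, had an unadjusted p below 0.05, against 3.26% of all genes tested. Complex II and the electron carriers had a median log2 fold change of -0.12 over 9 genes. The other assembly factors had 0.12 over 41, mitochondrial transcription and RNA genes 0.13 over 28, and coenzyme Q synthesis -0.09 over 13. The citric acid cycle had -0.02 over 21, glycolysis -0.16 over 21, the mitochondrial ribosome 0.01 over 77, the cytosolic ribosome -0.05 over 85 and regulators of biogenesis -0.02 over 13. Glycolysis genes summed to 8907, 6946, 6473 and 7276 CPM in Ctrl 1, Ctrl 2, Il33flx 1 and Il33flx 2. Ctrl 1 was the highest library for 17 of these 21 genes, and for 5131 of all 14995 genes tested. Sdha, the flavoprotein of complex II, stood at 746, 681, 618 and 624 CPM, with both Il33flx libraries lower and a log2 fold change of -0.20 with a standard error of 0.17. Tfam, which packages mitochondrial DNA and is needed to transcribe it, stood at 20.7, 24.4, 23.8 and 23.4 CPM, the same order of libraries as mt-Co1 over a far smaller range. Ctrl 1 was the lowest library for 19 of the 29 mitochondrial transcription and RNA genes listed, so a low Ctrl 1 was not particular to Tfam. It was also the lowest for 5411 of all 14995 genes tested. Tfb1m, with the smallest p of that list, stood at 3.58, 5.69, 8.04 and 6.89 CPM, higher in both Il33flx libraries (edgeR, adjusted p = 0.995). Polrmt, the mitochondrial RNA polymerase, stood at 64.6, 59.8, 56.1 and 50.1 CPM, with Ctrl 1 the highest. Ppargc1a, a coactivator of mitochondrial biogenesis, had the largest log2 fold change among the 13 regulators. It stood at 0.169, 0.120, 0.538 and 0.550 CPM from 9 to 39 counts, and its change of 1.90 had a standard error of 0.62 (edgeR, adjusted p = 0.995).

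Markers of other cells differed in level between the libraries, with 0 called by edgeR in the lists given here, while DESeq2 called the erythroid gene Car1. The summed level of 8 erythroid genes was 6.72, 6.19, 34.5 and 14.4 CPM in Ctrl 1, Ctrl 2, Il33flx 1 and Il33flx 2, with 8 of 8 log2 fold changes positive and Slc4a1 at 0 in Ctrl 1. The sum of 5 neutrophil genes was 192, 194, 415 and 279 CPM (4 of 5 positive). In both sums the Il33flx libraries were above the Ctrl libraries. The 5 genes of T cells, the lineage of the EL4 tumour, summed to 58.2, 43.6, 39.5 and 33.9 CPM (5 of 5 negative). Both Il33flx libraries lay below both Ctrl libraries for 4 of them, against 14.9% of all genes. Ctrl 1 was the highest library for all 5, and for 5131 of all 14995 genes tested. The 19 proliferation genes summed to 3669, 3971, 3701 and 4492 CPM (15 of 19 positive), and Il33flx 2 was the highest library for 16 of them. Over all 14995 genes tested, Il33flx 2 was the highest for 3293. Genes of mature DCs summed to 3472, 2200, 2227 and 2419 CPM, so Ctrl 1 was the highest; 8 of its 9 tested genes had negative log2 fold changes. The part of these cells in the member values was not tested.

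Nuclear respiratory factor 1 (NRF1) and ETS-family factors are known regulators of nuclear oxidative phosphorylation genes. RefSeq promoters of GRCm38.p6, from 250 bases before to 50 after the start, were matched for 70 of the 83 nuclear members, in 75 windows. The letters CGCATGCG, the core of the NRF1 site, stood in 11 windows (14.7%), against 1.87% of 32851 windows of all genes and 3.55% of those of genes tested. The letters CCGGAAG, an ETS site, stood in 16 windows (21.3%), against 8.86% and 16.7%. Both strands were searched, and the motifs share no letters by overlap in the promoters shown. Cox6a1, with the steadiest level of complex IV at 1.08-fold between lowest and highest library, and Ndufaf5, at 2.92-fold, both held the NRF1 core. They are printed on the strand of the gene with the motifs in capitals: Cox6a1 at chr5:115348909-115349208 on the minus strand, where an ETS site on the opposite strand follows the NRF1 core, and Ndufaf5 at chr2:140170396-140170695 on the plus strand.
Cox6a1: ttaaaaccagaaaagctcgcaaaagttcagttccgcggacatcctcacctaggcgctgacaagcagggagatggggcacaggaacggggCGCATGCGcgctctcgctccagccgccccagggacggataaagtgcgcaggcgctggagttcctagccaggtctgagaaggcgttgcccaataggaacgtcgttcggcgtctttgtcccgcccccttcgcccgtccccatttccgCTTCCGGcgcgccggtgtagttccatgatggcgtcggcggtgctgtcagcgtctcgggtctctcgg
Ndufaf5: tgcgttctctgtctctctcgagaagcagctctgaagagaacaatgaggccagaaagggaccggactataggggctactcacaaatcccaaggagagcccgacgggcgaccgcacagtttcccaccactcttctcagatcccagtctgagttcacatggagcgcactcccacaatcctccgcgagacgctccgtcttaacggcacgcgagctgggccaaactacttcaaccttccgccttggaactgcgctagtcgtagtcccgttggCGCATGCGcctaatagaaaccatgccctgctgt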

How the data were processed

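The authors deposited raw counts, whole numbers of reads per gene. The tools named in the submitters' processing notes are Trimmomatic 0.39, STAR, HTSeq and DESeq2, with build GRCm38; no source used here gives the other versions, the annotation release or the strand setting. The authors' deposited comparison table holds size-factor-scaled signal, log2 fold changes with standard errors, a Wald score and p-values, and was used only where named. Summary rows without a gene stayed out of library sizes.

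Counts were fitted with edgeR 4.0.16 in R 4.3.3 (filterByExpr, TMM, quasi-likelihood F test, group as the only term) and adjusted by Benjamini-Hochberg over 14995 genes, with calls below 0.05; the procedure was tested on simulated data. Each standard error was obtained as the absolute log2 fold change over the root of F. DESeq2 1.42.0, limma 3.58.1, other scalings, filters and left-out libraries were alternatives. GENCODE M21 gave coordinates, exon lengths and GC content. The exon length of a gene was the union of its exons over all annotated transcripts. A pseudocount of 0.1 CPM was used in ratios of one library to the others. Named genes were all mitochondrial members, isoform pairs and, per complex, those with the highest level per length or the smallest p. The members, lists and tests were chosen with earlier results of these data known. edgeR estimated a common biological coefficient of variation of 28.6%. One marker result is not reported here.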

Additional observations from a re-analysis of the deposited data

How the results depend on the processing

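The count of members called was 0 under every alternative run except one, and ranged from 0 to 3 over the fits that each leave out 1 library: it was 3 without Ctrl 2 (Ndufc2, Ndufv2 and Atp5f1). The nuclear median log2 fold change ranged from -0.088 to 0.047 over those fits, the mitochondrial median from -0.36 to 0.63, and the difference between the 2 medians, 0.12 with all libraries, from -0.32 to 0.61. With the GC and length offset that difference was -0.30, and the cause was not tested. Scaling by library size alone moved the median of all genes from 0.01 to 0.09. Of 38 named members, 16 changed sign without Ctrl 1, 5 without Ctrl 2, 10 without each Il33flx library and 6 with library size alone. Calls over all genes were 1 with edgeR, 53 with DESeq2, 0 with limma-voom, and 29, 66, 30 and 1 without Ctrl 1, Ctrl 2, Il33flx 1 and Il33flx 2. Samples with the same number deviated together with a correlation of -0.03 across genes, so the numbers were not taken as pairs; with the replicate number as a block (replicate block), 33 genes and 0 members were called, and the medians were 0.11 and -0.04.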

Other observations

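Among the other mitochondrial RNAs, mt-Rnr1, the small ribosomal RNA, stood at 3.73, 6.59, 6.88 and 4.56 CPM in Ctrl 1, Ctrl 2, Il33flx 1 and Il33flx 2. The transfer RNA gene mt-Tq, on the strand opposite to mt-Nd1 and mt-Nd2, had 100, 17, 22 and 4 counts, with Ctrl 1 far above the rest where most mitochondrial members were lowest. The transfer RNA gene mt-Tp, on the same strand as mt-Tq, had 25, 22, 14 and 11 counts. Other genes of that strand went the other way: mt-Tc had 6, 31, 22 and 1 counts and mt-Ta had 2, 13, 11 and 4, with Ctrl 2 and Il33flx 1 the high libraries as for most mitochondrial members.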
